A study of Mus musculus with 6 samples.

Results

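The interleukin-1 system was represented on the measured panel by 7 of 750 genes, taken as every row named Il1a or Il1b or with a name starting with Il1r or Irak. They were the ligand genes Il1a and Il1b, the receptor genes Il1r1, Il1r2 and Il1rap, and the kinase family genes Irak2 and Irak3. The set was selected on the measured TTFM and Saline values of Il1a, Il1b, Il1r2 and Irak2 in these same tumours, so differences between the groups in the 7 genes are given as a description. The counts of calls among them further on are no independent test. Interleukin-1 alpha and beta are inflammatory cytokines that bind the signalling receptor encoded by Il1r1. The ligand-bound receptor recruits the accessory chain encoded by Il1rap, the adaptor MyD88 and kinases of the IRAK family, which leads to activation of NF-kB and MAP kinases. The receptor encoded by Il1r2 binds the ligands but lacks a signalling domain and acts as a decoy, and IRAK3 restrains signalling. In tumours interleukin-1 is known to come from myeloid cells, stromal cells and cancer cells, and to induce neutrophil-attracting chemokines.

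The samples were 6 mammary tumours of female mice, grown from implanted 4T1 cells, a mouse mammary carcinoma line, in a model titled CLDX. In the Saline group, 3 tumours came from mice titled as given saline, and in the TTFM group 3 came from mice given extracts of a Thai traditional formulary medicine, with treatment from 2 weeks after implantation. All 6 tumours carried the same cell line. The sources used here do not give the strain, age, dose, length of treatment or make-up of the extracts. Nor do they say that each sample came from its own mouse, so the errors below are those of these samples alone and may be technical.

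The deposited values were read as raw counts, and their totals ran from 333515 to 449460 per tumour. Markers of epithelial tumour cells were present, with Cdh1, the epithelial cadherin, at 1032 to 1744 normalized counts over the 6 tumours and the integrin gene Itgb4 at 443 to 914. A normalized count is the count scaled by the sample's total and a trimmed-mean (TMM) factor to the average sample. Saline replicate 2 stood apart from its group. The chi-square per degree of freedom over all genes was 86.9 and 150.3 between it and Saline replicates 1 and 3, against 19.2 and 29.4 between it and TTFM replicates 2 and 1. The summed level of 6 fibroblast markers of 9 listed (Col1a1, Col1a2, Col3a1, Col5a1, Pdgfra and Pdgfrb) was 37207 normalized counts in that tumour. It was 7523 and 2701 in Saline replicates 1 and 3, and ran from 16196 to 22955 with TTFM. TTFM replicate 3 stood apart from its group as well, with a chi-square per degree of freedom of 60.5 and 55.0 to TTFM replicates 1 and 2. Between it and Saline replicates 1, 2 and 3 the values were 27.6, 62.3 and 54.5.

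Of the 7 genes, the promoters of the 4 whose values chose the set are shown, to set the neighbouring ligand genes beside the decoy receptor and the kinase. Il1a and Il1b are neighbours on chromosome 2, with 0 protein-coding genes between them in RefSeq, and Il1r2 and Il1r1 are neighbours on chromosome 1 likewise. Each window holds 250 bases before and 50 after the RefSeq start, in the build GRCm38.p6, read 5′ to 3′ along the gene. The windows are chr2:129309923-129310222 on the minus strand for Il1a, chr2:129371090-129371389 on the minus strand for Il1b, chr1:40085843-40086142 on the plus strand for Il1r2 and chr6:113638217-113638516 on the plus strand for Irak2. Capitals mark matches to the motifs named after the sequences.
Il1a: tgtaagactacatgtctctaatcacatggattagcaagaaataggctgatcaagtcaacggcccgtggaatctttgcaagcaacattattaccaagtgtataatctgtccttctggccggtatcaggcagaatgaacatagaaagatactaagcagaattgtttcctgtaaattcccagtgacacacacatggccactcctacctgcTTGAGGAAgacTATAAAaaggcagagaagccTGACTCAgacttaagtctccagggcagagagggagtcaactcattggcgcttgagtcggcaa
Il1b: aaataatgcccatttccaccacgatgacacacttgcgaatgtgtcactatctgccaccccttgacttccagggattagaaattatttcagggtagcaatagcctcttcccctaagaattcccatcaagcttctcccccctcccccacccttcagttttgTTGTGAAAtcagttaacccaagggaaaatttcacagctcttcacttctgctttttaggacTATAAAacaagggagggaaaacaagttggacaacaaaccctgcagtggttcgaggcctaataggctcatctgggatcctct
Il1r2: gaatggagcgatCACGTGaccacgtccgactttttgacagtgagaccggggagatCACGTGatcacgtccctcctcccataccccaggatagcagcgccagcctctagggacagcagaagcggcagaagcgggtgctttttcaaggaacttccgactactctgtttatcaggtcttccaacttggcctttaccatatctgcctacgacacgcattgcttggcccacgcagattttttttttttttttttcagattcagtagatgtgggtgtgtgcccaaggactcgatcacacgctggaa
Irak2: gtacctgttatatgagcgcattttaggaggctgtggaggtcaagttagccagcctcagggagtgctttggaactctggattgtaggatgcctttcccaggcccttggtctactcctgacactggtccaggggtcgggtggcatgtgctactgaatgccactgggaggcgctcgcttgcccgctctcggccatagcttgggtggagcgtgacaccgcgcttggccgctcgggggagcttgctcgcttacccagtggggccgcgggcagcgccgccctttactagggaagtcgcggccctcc

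The windows were searched on both strands for 6 short motifs, picked with the expression values known. Both ligand promoters held the TATA box letters TATAAA, starting 32 bases before the start of Il1a and 31 before that of Il1b. These letters are present in 13.6% of 32851 promoter windows of the same length. Both also held the C/EBP letters TTNNGNAA, at 43 bases before the start of Il1a and at 91 before that of Il1b (40.7% of windows). These letters also occur in windows of Il1r1 and Irak3. In Il1a they overlap the PU.1 core GAGGAA, which occurs in 28.3% of windows and also in a window of Irak3. The AP-1 letters TGANTCA occurred in Il1a alone among the 7 genes, at 12 bases before the start, and are found in 7.81% of windows. The Il1r2 window held the E-box CACGTG, a motif added after the sequences were read, at 238 and 195 bases before the start. At least 2 copies occur in 0.594% of windows, and at least 1 in 7.15%. A window of Irak3 also holds the E-box. The Irak2 window held none of the 6 motifs. Among the 7 genes the kB consensus occurred in Il1r1 alone, in 1 of its windows, at 232 bases before that start on the opposite strand, and it is found in 8.46% of all windows. It was in none of the 4 windows shown, which says only that its letters are missing from them. The ligand promoters held 5 CG dinucleotides in Il1a and 3 in Il1b, against 16 in Il1r2, 18 in Irak2 and a median of 7 over all windows. At most 5 occur in 43.6% of all windows, and 1 of the windows of Il1r1 also holds 5.

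Among the ligands, Il1b, which encodes interleukin-1 beta, was the more divided by group. It had 2289, 1257 and 2603 normalized counts in Saline replicates 1 to 3 and 803, 706 and 459.6 in TTFM replicates 1 to 3. Every TTFM value lay below every Saline value, with Saline replicate 2 nearest to the TTFM tumours. The mean was 2049.7 ± 705 in Saline and 656 ± 177 with TTFM (SD, n = 3 each), a 3.12-fold ratio of Saline over TTFM, and the log2 fold change, TTFM over Saline, was -1.64 with a standard error (SE) of 0.34 from the fit of edgeR across all tested genes. In these bulk tumours fewer cells of a type and less RNA per cell cannot be told apart.

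Il1a, which encodes interleukin-1 alpha, had 575, 491 and 461 normalized counts in Saline and 402, 606 and 123 with TTFM. The groups overlapped, and TTFM replicate 3 stood alone at the low end. That tumour, which had the lowest total count (333515), was also lowest in Il1b, Il1r2 and Il1rap. In Il1r1 and Irak3 it was the highest. The log2 fold change of Il1a was -0.43 (SE 0.49), at 0.0014 without TTFM replicate 3 and -0.96 without TTFM replicate 2. The spread of Il1a within TTFM was 242 around a mean of 377, against 59.0 around 509 in Saline (SD, n = 3 each). Although the ligand genes are neighbours, the log2 ratio of Il1a to Il1b within a tumour was -1.99, -1.35 and -2.50 in Saline and -1.0, -0.22 and -1.90 with TTFM. The ratio was highest in TTFM replicate 2, where Il1a lay above all its Saline values and Il1b below all of its own. The groups overlapped in it, and its mean difference, TTFM minus Saline, was 0.91, or 0.50 without TTFM replicate 2.

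Among the receptors, Il1r2, the decoy, had 90.5, 88.7 and 172 normalized counts in Saline and 49.1, 41.1 and 23.3 with TTFM. Saline replicate 3 was the highest and the groups did not overlap. The means were 117 ± 47.4 for Saline and 37.8 ± 13.2 for TTFM (SD, n = 3 each). The log2 fold change was -1.62 (SE 0.40), and the lowest deposited count, 21 in TTFM replicate 3, has a 95% Poisson interval of 13 to 32.1, which covers counting error only. Il1r1, the signalling receptor, had 542, 627 and 491 normalized counts in Saline and 458, 532 and 714 with TTFM. These groups overlapped widely, with the highest and the lowest value both in TTFM (log2 fold change 0.037, SE 0.23, and -0.14 to 0.17 with 1 tumour left out, the ends without TTFM replicates 3 and 1). Il1rap, the accessory chain, had 224, 182 and 164 in Saline and 140.4, 185 and 107 with TTFM. Its highest value was in Saline and its lowest in TTFM, and TTFM replicate 2 lay within the Saline range (-0.40, SE 0.26, and -0.63 to -0.21 with 1 tumour left out, the ends without TTFM replicates 2 and 3). The decoy and the signalling receptor had unlike profiles, but Il1r2 was among the genes chosen on this contrast and Il1r1 was not. The log2 ratio of Il1r2 to Il1r1 was -2.58, -2.82 and -1.52 in Saline and -3.22, -3.70 and -4.94 with TTFM. These values did not overlap, which restates the group difference of Il1r2 and is no further support. A share over all genes was not computed for such ratios.

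Among the IRAK genes, Irak2, which encodes a kinase-like protein that sustains signalling from the receptor complex, had 629.8, 158 and 617 normalized counts in Saline and 136, 150.3 and 283 with TTFM. Saline replicates 1 and 3 were high, while Saline replicate 2 lay within the TTFM range, so the groups overlapped. The means were 468 ± 269 for Saline and 189.9 ± 80.9 for TTFM (SD, n = 3 each). The log2 fold change was -1.30 (SE 0.53), and ran from -1.71 to -0.997 with 1 tumour left out, the ends without Saline replicates 2 and 1. Irak3 had 21.2, 37.5 and 40.4 in Saline and 34.4, 22.0 and 48.8 with TTFM, with no order by group (0.084, SE 0.41, and -0.20 to 0.32 with 1 tumour left out, the ends without TTFM replicates 3 and 2). Its deposited counts of 22 to 47 were above those of Uty, a Y-linked gene with 4 to 12 counts in these female tumours.

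**Figure D1:**
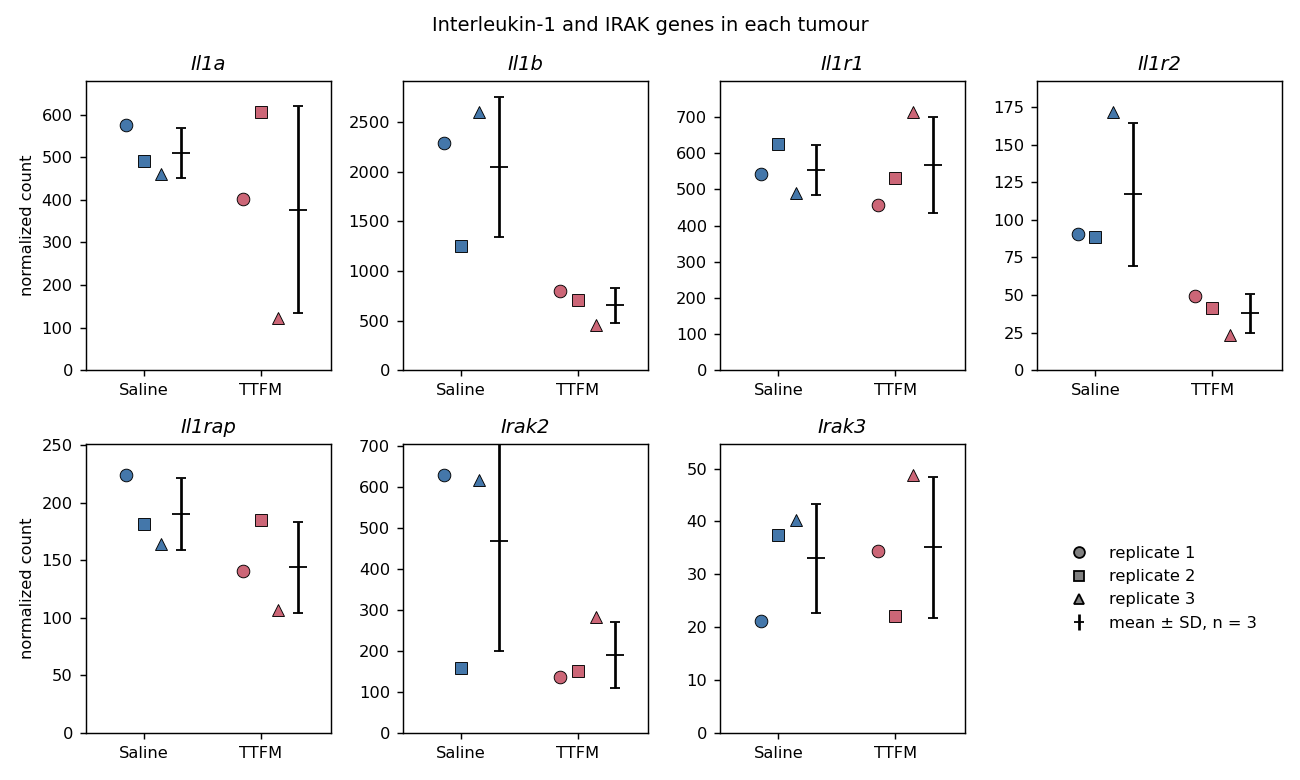
Normalized count (y axis, linear from 0) of each of the 7 genes in the 3 Saline and 3 TTFM tumours (x axis), with symbols for replicates and bars for the mean ± SD (n = 3). Il1b and Il1r2 show no overlap between groups, Irak2 has Saline replicate 2 at 158 beside TTFM values of 136 to 283, and Il1a has 1 low value, 123 in TTFM replicate 3.

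All 7 genes passed the filter, a mean count of 10 or more, as did 627 of 750 genes, and each had at least 21 counts in every tumour. By edgeR's quasi-likelihood test with Benjamini-Hochberg adjustment over the 627, 0 of 7 were called at 0.05, beside a background of 0% of all genes tested. At an unadjusted p under 0.05, edgeR gave 3 of 7 on the lower side in TTFM (Il1b, Il1r2 and Irak2) beside 4.47% of all genes, and 0 of 7 on the higher side beside 1.59%. DESeq2 called 1 gene of the panel, Il1b, and limma with trend called 0. Groups did not overlap, with TTFM lower, in 2 of 7 genes beside 4.31% of all genes, and with TTFM higher in 0 of 7 beside 3.99%. Log2 fold changes were negative in 5 of 7 beside 50.1%, and the median over all genes tested was -0.0014. Without Saline replicate 2, edgeR called 14 genes of the panel, 2.2% of 637 tested. Since this contrast chose the genes, nothing is read from any of these counts and shares.

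**Figure D2:**
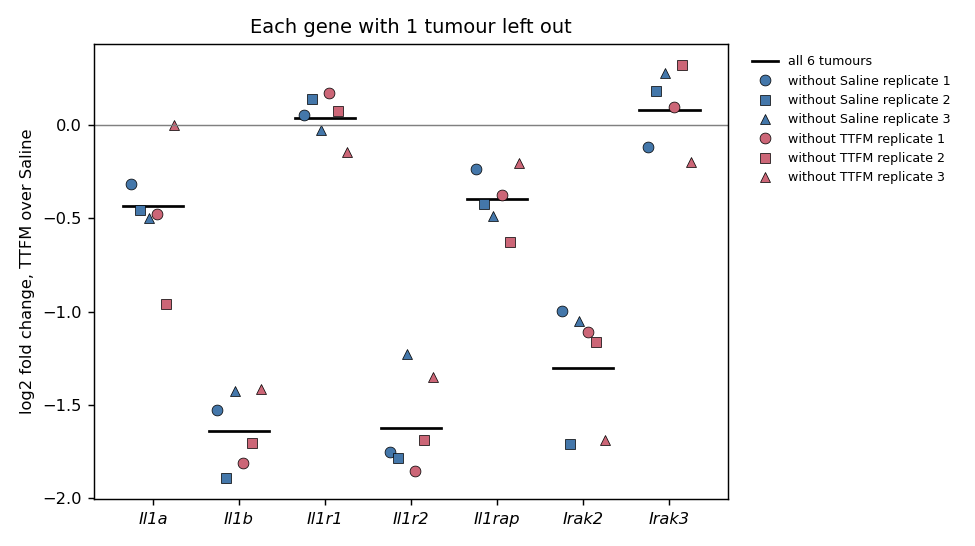
Log2 fold change, TTFM over Saline (y axis), of the 7 genes (x axis) with all 6 tumours (black line) and with each tumour left out in turn (symbols). Il1b stays between -1.89 and -1.42 and Il1r2 between -1.85 and -1.23, while Il1a runs from -0.96 to 0.0014.

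How far the 7 genes shared a profile was measured as the root-mean-square difference between their log2 normalized counts over the 6 tumours, each gene centred on its mean. This is a description that contains the group difference. Il1b and Il1r2 were the most alike of the 21 pairs, at 0.28 log2 units, and the next pair, Il1r1 and Irak3, was at 0.41. The latter is no closer than the median of Il1r1 to 534 panel genes outside the 7, also 0.41. The log2 ratio of Il1r2 to Il1b was -4.66, -3.82 and -3.92 in Saline and -4.03, -4.10 and -4.30 with TTFM, with means of -4.14 ± 0.46 and -4.15 ± 0.14 (SD, n = 3 each). The difference in means, -0.010, was smaller than either spread. Il1a and Irak2 were the least alike, at 1.21. Il1b and Il1a were 0.74 apart and Il1b and Irak2 0.71.

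The same measure, taken over 534 other genes whose mean count reached 20, gave the closest profiles. For Il1b these were Dusp5, a phosphatase of ERK kinases, at 0.29, the cytokine gene Osm at 0.32, the small heat shock gene Hspb1 at 0.41 and the MAP kinase phosphatase gene Dusp8 at 0.42, against a median of 0.97. Il1r2 had Hspb1, Chuk, Dusp8 and Dusp5, at 0.41 to 0.45 (median 1.00), and 3 of these were also among the 4 of Il1b. None of the 534 genes was as close to Il1b or to Il1r2 as they were to each other. The margin was narrow for Il1b, with Dusp5 at 0.294 against 0.276. Both members were chosen on the same contrast, which the measure contains, so their closeness was favoured by the choice. Irak2 was closest to the kinase gene Pim1, at 0.16, and to Gadd45b, Fos and Rasgrp2, at 0.22 to 0.25 (median 0.96). Pim1 had 446, 134 and 459 normalized counts in Saline and 128, 116 and 191 with TTFM, with Saline replicate 2 low as in Irak2. Il1a was closest to Fancb, of the Fanconi anaemia DNA repair pathway, at 0.31, and to Fosl1, Cdc25c and Mlf1, at 0.44 to 0.46 (median 0.85). Fancb was likewise lowest in TTFM replicate 3, at 8.88 normalized counts against 29.9 to 54.1 in the other tumours. Il1r1 was closest to Grb2, Nsd1, Bcor and Gng12 (0.063 to 0.10, median 0.41), Il1rap to Cdkn1a, Nfkb1, Cdkn2d and Cdk2 (0.18 to 0.22, median 0.48) and Irak3 to Sox17, Ifnar2, Syk and Bad (0.21 to 0.30, median 0.58).

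**Figure D3:**
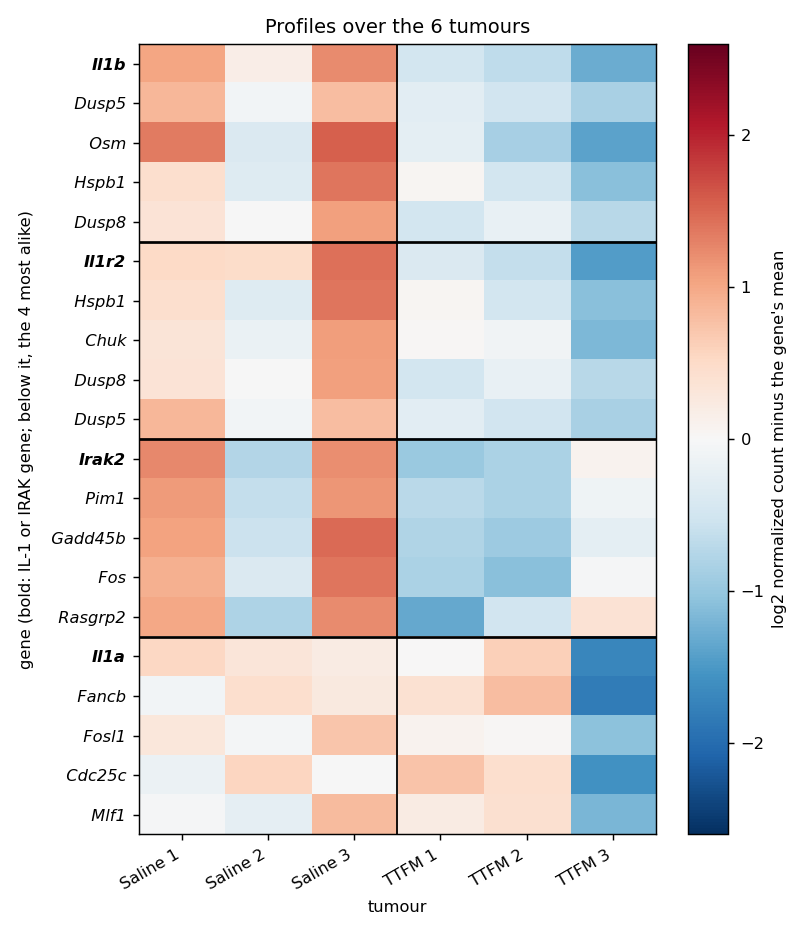
Log2 normalized count minus the gene's mean (colour) in each tumour (columns) for Il1b, Il1r2, Irak2 and Il1a (bold) and the 4 genes most alike each (rows). Saline replicate 2 is on the low side in the Irak2 block (-0.75 in Irak2), while the Il1a block is low in TTFM replicate 3 (-1.69 in Il1a). Il1b and Il1r2 are also lowest in TTFM replicate 3 (-1.28 and -1.44).

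The rest of the pathway was read from lists drawn up with earlier results of these data known. Of 35 genes listed as adaptors and kinases of interleukin-1 and Toll-like receptors, 19 were on the panel and tested. The 19 include the transcription factor genes Nfkb1, Rel, Rela, Jun and Fos. In edgeR 0 passed the adjusted test, 13 had negative and 6 positive log2 fold changes, beside 50.1% negative over all genes tested, and the median was -0.12 beside -0.0014. At an unadjusted p under 0.05, edgeR gave 1 of the 19, Fos, on the lower side and 0 on the higher, beside 4.47% and 1.59% of all genes, so 1 call is near the background. Myd88, the adaptor that links the receptors to IRAK kinases, had 155, 175 and 155 normalized counts in Saline and 193, 179 and 189.8 with TTFM, a narrow range with all TTFM values above (log2 fold change 0.21, SE 0.18, edgeR adjusted p = 0.938). Fos, an AP-1 subunit, stood at -1.39 (SE 0.47, edgeR adjusted p = 0.630), with Saline replicate 2 at 409 normalized counts, within the TTFM range of 252 to 524. Mapk8, which encodes the kinase JNK1, had 387, 365 and 482 in Saline and 292, 325 and 303 with TTFM, with no overlap (-0.43, SE 0.20, edgeR adjusted p = 0.801). Mapk8 was the 1 gene of 19 without overlap on the lower side and Myd88 the 1 on the higher. The shares over all genes were 4.31% and 3.99%, so both are near the background. Chuk and Rela, which encode IKK alpha and an NF-kB subunit, stood at -0.83 and -0.43, and at -0.41 and -0.14 without Saline replicate 3.

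Of 13 NF-kB inhibitors and feedback genes, 6 were tested, 5 with negative values, with a median of -0.42. Again 0 passed edgeR's adjusted test, and at an unadjusted p under 0.05 edgeR gave 2 lower, Nfkbiz and Socs3, and 1 higher, Socs1, beside the same 4.47% and 1.59% of all genes. Negative values made up 50.1% of all genes. Nfkbiz, an interleukin-1-inducible regulator of NF-kB, had 1169, 738 and 1547 normalized counts in Saline and 611, 642 and 595 with TTFM, with no overlap (log2 fold change -0.90, SE 0.28, edgeR adjusted p = 0.582). Socs1, a suppressor of cytokine signalling, lay the other way, with 45.3, 33.0 and 30.1 in Saline and 90.3, 58.1 and 69.9 with TTFM (1.01, SE 0.32, edgeR adjusted p = 0.582). Groups did not overlap in 1 of 6 genes on the lower side and 1 on the higher, beside 4.31% and 3.99% of all genes. Socs3 stood at -1.06, and at -0.63 without Saline replicate 1. Nfkbia, the NF-kB inhibitor IkB alpha, stood at -0.45, and at -0.17 without Saline replicate 3.

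Of 27 genes known to respond to interleukin-1, 13 were tested, 9 with negative values (50.1% over all genes), with a median of -0.38. None passed edgeR's adjusted test (0 of 13), and edgeR gave 3 lower at an unadjusted p under 0.05, the chemokine genes Cxcl5 and Cxcl2 and the cytokine gene Tnf, beside 4.47% of all genes. Cxcl5 had 75.1, 30.7 and 113 normalized counts in Saline and 16.7, 18.0 and 35.5 with TTFM, overlapping through Saline replicate 2 (log2 fold change -1.65, SE 0.54, edgeR adjusted p = 0.587). Cxcl2 stood at -2.09 (SE 0.87, edgeR adjusted p = 0.758) with 23.9 in Saline replicate 2 and 47.1 in TTFM replicate 1. Its deposited count in TTFM replicate 3 was 4, the same as that of Uty in that sample. Tnf stood at -1.08 (SE 0.42) with at most 50 counts in any tumour. Csf3, the granulocyte colony-stimulating factor, stood at -0.82, and at -0.34 without Saline replicate 1. Il6, a classical interleukin-1 target, had 11 to 21 deposited counts, against 4 to 12 for Uty, and stood at -0.38 (SE 0.39). Mmp3 and Mmp9, matrix metalloproteinases, stood at 0.25 (SE 0.48) and 0.59 (SE 0.91), and groups overlapped in all 13 genes. Leaving out Saline replicate 2 put Il6 at 0.024, Mmp3 at 0.87 and Mmp9 at 2.14, and leaving out Saline replicate 3 put Mmp3 at -0.12 and Mmp9 at 0.12. Of 18 genes for maturation of interleukin-1 and the rest of its family, 1 was on the panel, Casp8 (0.23, SE 0.23, and 0.11 to 0.40 with 1 tumour left out, the ends without Saline replicate 3 and TTFM replicate 3).

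Of 10 genes of Toll-like receptors that share the IRAK kinases, 3 were tested and 0 passed edgeR's adjusted test. At an unadjusted p under 0.05, edgeR gave 1 of the 3, Cd14, on the lower side, beside 4.47% of all genes. Cd14, a co-receptor for lipopolysaccharide, had 803, 154 and 641 normalized counts in Saline and 157, 145 and 179.8 with TTFM, the same arrangement as Irak2 with Saline replicate 2 within the TTFM range (log2 fold change -1.73, SE 0.53). Tlr2 had 100.2, 54.6 and 122 in Saline and 40.3, 52.1 and 63.3 with TTFM (-0.83, SE 0.37), and Tlr4 stood at 0.25 (SE 0.29), running from 0.052 to 0.45 with 1 tumour left out, the ends without Saline replicates 2 and 1.

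**Figure D4:**
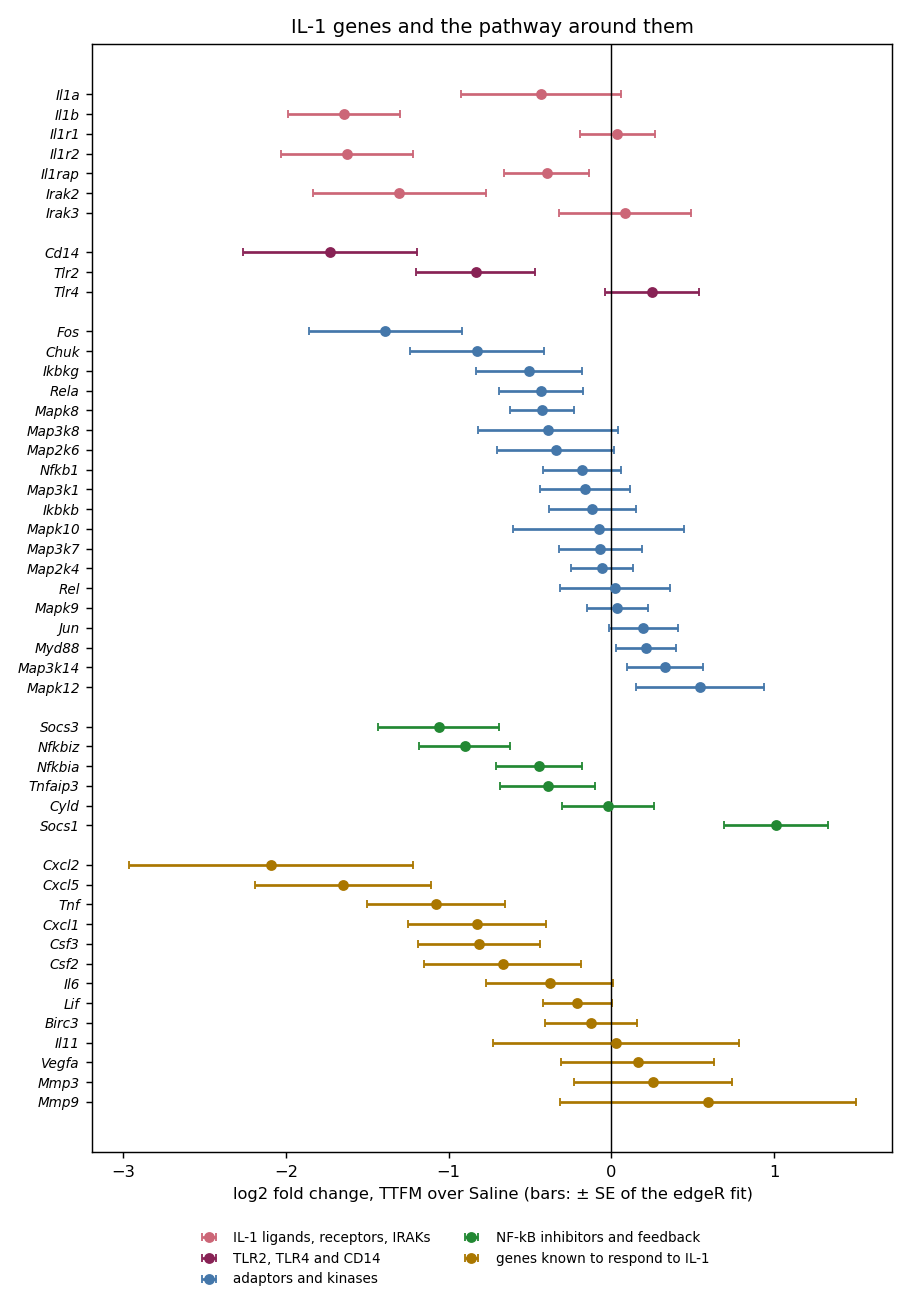
Log2 fold change, TTFM over Saline (x axis), with the SE of the edgeR fit as bars, for the 7 genes and for the tested members of 4 lists around them (y axis). Il1b, Il1r2 and Irak2 lie at -1.64 to -1.30, Il1r1 and Irak3 near 0, Cxcl2 at -2.09 and Socs1 at 1.01.

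Il1b and Il1r2 are known to be abundant in neutrophils and monocytes. Of 12 neutrophil markers 3 were on the panel, all above the table's lowest value of 1 in every tumour. Csf3r, which encodes the G-CSF receptor, had 254, 107 and 438 normalized counts in Saline and 108, 62.1 and 82.1 with TTFM. Over the 6 tumours Mpo had 3.93 to 52.3 normalized counts, and Mmp9 had 468 to 5510. The summed level of the 3 was 923 to 5669 in Saline and 1104 to 5194 with TTFM, set largely by Mmp9. Of 10 monocyte and macrophage markers 2 were on the panel, Cd14 and Csf1r. Their sum was 1183, 656 and 852 in Saline and 617, 603 and 712 with TTFM, with Csf1r, the defining macrophage growth factor receptor, at 211 to 503 in Saline and 458 to 532 in TTFM. The part of these cells in the values of Il1b, Il1r2 and Irak2 was not tested. Markers of other cell types were few, with Il7r of 8 T cell markers, Il2rb of 4 NK cell markers, Kdr and Flt1 of 7 endothelial markers, and Flt3 of 6 dendritic cell markers at 0.98 to 6.87 normalized counts.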

How the data were processed

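RNA from 3 Saline and 3 TTFM tumours was measured for 750 genes. The deposited table was read as whole-number counts per gene. The platform, counting and normalization are named in no label or header (not given in the sources used here). No value was under 1, so zeros may have been raised before deposit. All 6 columns of the table were used. Gene names are the table's own, and 740 matched a symbol and 10 a single synonym in RefSeq (GRCm38.p6). Promoter sequences are RefSeq's, with 9 windows for the 7 genes.

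Genes averaging 10 or more counts were fitted with edgeR 4.0.16 (TMM, glmQLFit, glmQLFTest) in R 4.3.3, with group as the only term and Benjamini-Hochberg adjustment at 0.05. The SE is the log2 fold change over the square root of F. The code was tested on simulated data. DESeq2 1.42.0, limma 3.58.1, other scalings, filters, a replicate block and leaving out each tumour were alternatives. Counts of any pair of samples differed beyond sampling noise (the lowest chi-square per degree of freedom was 7.52).

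The members, lists, motifs and tests were chosen with earlier results of these data known. Named are all 7 genes, the 4 most alike in profile to each, up to 4 members of smallest p per list, and the tested markers. Myd88, Il6, Mmp3 and Pim1's values were singled out after the values were seen. The ratio of Il1r2 to Il1r1 was not among the ratios planned.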

Additional observations from a re-analysis of the deposited data

How the results depend on the processing

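With edgeR, the number of panel genes past the threshold was 0 under total count scaling, DESeq2 size factors, no filter, a mean count of at least 50, values under 20 raised to 20 and the replicate block. It was 1 with DESeq2 (Il1b) and 0 with limma with trend. With 1 tumour left out it ran from 0 to 14, the 14 without Saline replicate 2. The cause was not tested. With the replicate block the log2 fold change was -1.61 for Il1b, -1.58 for Il1r2 and -1.14 for Irak2. Deviations from the group means correlated at -0.21, 0.42 and 0.26 for the Saline and TTFM samples numbered 1, 2 and 3. Saline replicates 2 and 3 correlated best with the TTFM sample of their own number, and Saline replicate 1 with TTFM replicate 3 (0.39). With 3 samples per group these correlations cannot decide whether the samples were paired. The labels share only a number, and no pairing was used in the main fit.

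Under the settings that keep all 6 tumours, the log2 fold change of Il1b ran from -1.74 to -1.57, of Il1r2 from -1.72 to -1.55, of Irak2 from -1.37 to -1.13 and of Il1a from -0.70 to -0.37. The median log2 fold changes of 4 lists were recomputed and stayed negative in every setting run. The lists were adaptors and kinases, NF-kB inhibitors and feedback genes, interleukin-1-responsive genes and Toll-like receptors. With 1 tumour left out, the median of adaptors and kinases ran from -0.19 to -0.025 (the ends without Saline replicate 2 and without TTFM replicate 3). That of NF-kB inhibitors and feedback genes ran from -0.59 to -0.19 (without TTFM replicate 1 and Saline replicate 3). It ran from -0.50 to -0.23 for interleukin-1-responsive genes (without Saline replicates 3 and 2) and from -1.10 to -0.57 for Toll-like receptors (without Saline replicates 2 and 3). The Toll-like receptor list had 3 tested genes, Cd14, Tlr2 and Tlr4, so its median with 1 tumour left out was the value of Tlr2 alone. Tlr4 stayed positive with 1 tumour left out, at 0.052 to 0.45. The adaptor and kinase median was -0.20 under total count scaling and -0.043 with no filter, and that of interleukin-1-responsive genes was -0.21 both with a mean count of at least 50 and with values under 20 raised to 20. Scaling to housekeeping genes was not run, since only B2m of the listed genes was on the panel. Depth limits Irak3, Il6 and Tnf, with at most 50 counts in any tumour. Other list genes were as low, such as Il11, Map2k6, Mapk10 and Mapk12, at 1.72 to 42.1 normalized counts. Cxcl2 and Mpo were limited in their lowest tumours.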
